A study of Mus musculus with 12 samples.

Results

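The genes described here encode heat shock proteins, their J protein partners and the cytosolic chaperonin, in the medial prefrontal cortex (mPFC) of mice. They are the protein-coding genes whose symbols start with Hspa, Hspb, Hspd, Hspe, Hsph, Dnaja, Dnajb or Dnajc followed by a number, or with Hsp90a, together with Cct2 to Cct8 and Tcp1. Hspa5 was left out. By GENCODE M21 symbols the rule found 69 of the 17283 genes of the table, and 66 of the 69 had an FPKM of at least 1 in 3 or more libraries and were tested. FPKM counts the fragments of a gene relative to its length and to the size of the library. A further 10 annotated symbols of the rule have no row in the table used here, and Cct6a is given apart because GENCODE M21 does not class it as protein-coding. The rule also takes in chaperones of the endoplasmic reticulum (ER) and of mitochondria, which the results name as such.

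The study compared C57 mice with BTBR mice, inbred animals studied for behaviour that resembles autism, to learn whether ASIV acts on neurotransmission in BTBR. ASIV is astragaloside IV, which is made by the root of Astragalus. The 12 libraries form 4 groups of 3, which are wild-type C57 given the DMSO solvent (C57 vehicle), C57 given ASIV, BTBR given DMSO (BTBR vehicle) and BTBR given ASIV. All groups received intraperitoneal injections for 7 days, and no group was left without injection. The labels give no dose, age or sex, and do not say whether the 3 libraries of a group came from separate animals, so p-values measure only the spread between these libraries.

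Chaperones bind unfolded stretches of other proteins and release them through cycles of ATP hydrolysis. J proteins deliver clients to Hsp70 and start its ATP hydrolysis, Hsp110 proteins and other exchange factors reset it, and Hsp90 acts later on kinases and receptors. The CCT chaperonin, a double ring of related subunits, folds actin and tubulin. Heat shock factors bind inverted GAA units, called heat shock elements, in the promoters of the inducible members. At synapses Hsc70, with the J proteins auxilin and cysteine string protein, strips clathrin from vesicles and keeps SNARE proteins folded.

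Heat shock element units were looked for in the promoters because heat shock factors bind them. Promoters came from RefSeq (GRCm38.p6), as windows of 300 bases from 250 before to 50 after each start site, and 57 of the 69 members matched. The other 12 were Cct4, Dnajc2, Dnajc5, Dnajc11, Dnajc12, Dnajc18, Dnajc30, Hsp90aa1, Hsp90ab1, Hspa8, Hspa9 and Hspa13. The sites below are 30 bases long, are written 5′ to 3′ on the strand of the gene, and carry the units in capitals. Those of Hspa1a, Hsph1, Hspb1 and Hspb6 are shown because these genes were called with strain, that of Hspa1b because it is the near copy of Hspa1a, those of Hspd1 and Dnajb6 because they hold runs of units, and those of Cct2 and Cct5 because they belong to the chaperonin.
Hspa1a, chr17:34972242-34972271, minus strand: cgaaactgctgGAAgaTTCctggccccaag
Hspa1b, chr17:34959324-34959353, minus strand: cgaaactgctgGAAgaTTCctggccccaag
Hsph1, chr5:149636279-149636308, minus strand: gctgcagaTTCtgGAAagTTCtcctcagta
Hspb1, chr5:135887801-135887830, plus strand: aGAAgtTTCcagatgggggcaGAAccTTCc
Hspb6, chr7:30553170-30553199, plus strand: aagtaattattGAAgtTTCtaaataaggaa
Hspd1, chr1:55088053-55088082, minus strand: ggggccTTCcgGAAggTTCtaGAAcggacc
Dnajb6, chr5:29735844-29735873, plus strand: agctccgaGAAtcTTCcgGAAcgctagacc
Cct2, chr10:117063399-117063428, minus strand: ccccaagtgaaGAAgtTTCtagcaggacct
Cct5, chr15:31601862-31601891, minus strand: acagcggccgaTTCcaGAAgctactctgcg
The Hspd1 stretch is also the site of Hspe1, read on the other strand, since the 2 genes lie head to head. Hspa1a and Hspa1b, the near-identical inducible Hsp70 pair, hold the same site at position -104, counted with the start site at 0. Over the 200 bases before the start, shown because reads of the pair are hard to tell apart, their promoters differ at 1 base.
Hspa1a, chr17:34972157-34972356, minus strand: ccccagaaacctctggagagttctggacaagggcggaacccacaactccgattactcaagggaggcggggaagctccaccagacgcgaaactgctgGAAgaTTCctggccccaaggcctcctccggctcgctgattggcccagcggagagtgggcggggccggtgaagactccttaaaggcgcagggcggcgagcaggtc
Hspa1b, chr17:34959239-34959438, minus strand: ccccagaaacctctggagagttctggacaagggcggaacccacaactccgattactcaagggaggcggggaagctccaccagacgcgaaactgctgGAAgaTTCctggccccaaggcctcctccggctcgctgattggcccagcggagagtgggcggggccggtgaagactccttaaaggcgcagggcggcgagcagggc

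A pair of inverted units, GAANNTTC or TTCNNGAA, each of which reads the same on both strands, was held by 17 of the 57 member promoters. That is 29.8% (exact Clopper-Pearson 95% interval 18.4 to 43.4%, counting error only), beside 16.97% of the promoters of all 27025 genes of the RefSeq table. Runs of 3 alternating units, which contain 2 overlapping pairs, were held by Hspd1, Hspe1, Hsph1 and Dnajb6. That is 7.0% of the 57 members (interval 1.9 to 17.0%) beside 0.66% of all genes, with Hspd1 and Hspe1 counted apart though they hold the same stretch. A gene with several windows was counted as holding a motif if any of them did. TATAAA on either strand was found in 4 member promoters (7.0%, beside 15.67% of all genes). A match is a description of these letters and not of binding. Neither promoter window of Dnajb1, an inducible gene, holds a pair, which says only that these letters are not in those windows.

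The libraries held 16166328 to 18660039 fragments, recovered from the FPKM values and exon lengths, and a member had between 1 and 28956 fragments in a library. Pearson correlations of replicates ran from 0.971 (BTBR vehicle) to 0.992 (C57 vehicle) on the log2 scale. The BTBR vehicle libraries stood apart in the 13 mRNAs of the mitochondrial genome, which took 0.456 ± 0.16% of their fragments (SD, n = 3), beside 3.12 ± 0.0984% for BTBR ASIV, 3.98 ± 0.912% for C57 ASIV and 4.62 ± 0.183% for C57 vehicle. Neuron markers were high in every library, with summed FPKM of 1890 to 1992 for C57 vehicle, 1672 to 1872 for C57 ASIV, 1381 to 1518 for BTBR vehicle and 1503 to 1673 for BTBR ASIV. Under vehicle, 3 of 10 neuron, 2 of 8 astrocyte, 2 of 8 microglia, 2 of 10 endothelial and mural, and 1 of 4 tested blood markers were lower in BTBR. Of all genes 20.8% were lower. On the higher side were 1 astrocyte, 2 oligodendrocyte, 2 microglia and 1 endothelial marker, beside 22.3% of all genes. Oligodendrocyte sums ran from 625.9 to 1345 in BTBR vehicle and from 732.1 to 849.8 in C57 vehicle. Ependymal and choroid plexus sums were 2.969 to 11.95 over the 12 libraries, from the 5 of 8 markers that have a row in the table. With ASIV in BTBR 1 of 10 neuron, 1 of 8 astrocyte, 2 of 8 microglia and 1 of 10 endothelial and mural markers were higher. On the lower side were 1 astrocyte, 2 oligodendrocyte, 2 microglia and 3 endothelial and mural markers. Of all genes 13.7% were higher and 15.4% lower in this comparison. Of 15 immediate early genes 1 was lower with ASIV in BTBR, and their sums ran from 178 to 674.3 FPKM over the BTBR ASIV libraries, beside 323.3 to 350.5 for BTBR vehicle. The part of these differences in the results below was not tested beyond a rescaling without mitochondrial genes. In bulk tissue fewer cells of a type and less RNA per cell cannot be told apart.

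Together the 69 members summed to 1911 ± 73.6 FPKM for C57 vehicle, 2078 ± 223 for C57 ASIV, 2095 ± 289 for BTBR vehicle and 1784 ± 126 for BTBR ASIV (SD, n = 3), so the totals of the groups overlapped. Per length, the highest in C57 vehicle were Hsp90ab1 (422 FPKM), Hspa8 (238), Hsp90aa1 (187) and Dnajc5 (64.2). Their ranges over the 3 libraries did not overlap with each other. At the low end Dnajb13, Dnajc25 and Hspa1l did not reach the level for testing.

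Under vehicle, 20 of the 66 tested members were higher in BTBR than in C57 and 13 were lower, by limma on log2(FPKM + 1) with Benjamini-Hochberg adjustment over 13586 genes and a threshold of 0.05. Of all genes tested, 22.3% were called higher and 20.8% lower, beside 30.3% and 19.7% of the members. The median log2 difference of the members was 0.13, beside 0.01 for all genes. The members called higher included 6 of the 7 CCT subunits, Hsp90ab1, the Hsp110 gene Hsph1 and 10 J proteins, and those called lower included the cytosolic Hsp70 genes Hspa8 and Hspa1a and their partner Dnajb1. This split depended on the scaling. With libraries made equal in the sum of the nuclear genes, the count was 12 higher and 19 lower. So 38.7% of the called members were higher in place of 60.6%. Of all 13586 genes, 2030 were then higher and 3691 lower, in place of 3026 and 2832, and their median shifted to -0.095. The rescaling kept the direction of every called member. It ended 8 of the calls on the higher side (Hsph1, Hspa12b, Hsp90ab1, Dnajb11, Dnajc17, Dnajc18, Hspb1 and Cct7) and none on the lower. Leaving out C57 vehicle library 1 or 2 gave 13 members higher, beside 2384 and 2337 of all genes. Leaving out BTBR vehicle library 2 gave 14, beside 3027 of all genes. Leaving out 1 of the vehicle libraries ended the call at least once for 11 members, namely Cct7, Dnajb9, Dnajb11, Dnajc17, Dnajc18, Dnajc19, Hsp90ab1, Hspa2, Hspa12b, Hspb1 and Hsph1.

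ASIV against vehicle in BTBR called 6 members higher and 21 lower, beside 13.7% and 15.4% of all genes. The members' median was -0.13, beside -0.01 for all genes. This comparison shares the BTBR vehicle libraries with the strain comparison, so a library that is high in one enters the other with the opposite sign, and the values are given side by side. The count of members called lower was 9 without BTBR vehicle library 2 and 8 without BTBR ASIV library 1. In these fits 1968 and 1679 of all genes were lower, in place of 2090. The members' count was 13 without BTBR vehicle library 3, BTBR ASIV library 2 or BTBR ASIV library 3, beside 1721, 1669 and 1637 of all genes. With the sum of the nuclear genes made equal, 10 members were higher and 4 lower (71.4% of calls higher in place of 22.2%). The 4 were Cct8, Tcp1, Dnajc17 and Dnajc21. Of all genes 3021 were then higher and 1122 lower, in place of 1864 and 2090, with their median at 0.114. The calls made under every alternative tried were Dnajb1, Hspa2, Hspa12a and Dnajc8 on the higher side and Dnajc17, Cct8, Tcp1 and Dnajc21 on the lower side. Leaving out 1 library ended the call at least once for 16 others, namely Cct2, Cct3, Cct5, Dnajb2, Dnajb11, Dnajb12, Dnajc2, Dnajc10, Dnajc14, Dnajc18, Dnajc27, Hsp90aa1, Hsp90ab1, Hspa9, Hspb6 and Hsph1.

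**Figure D1:**
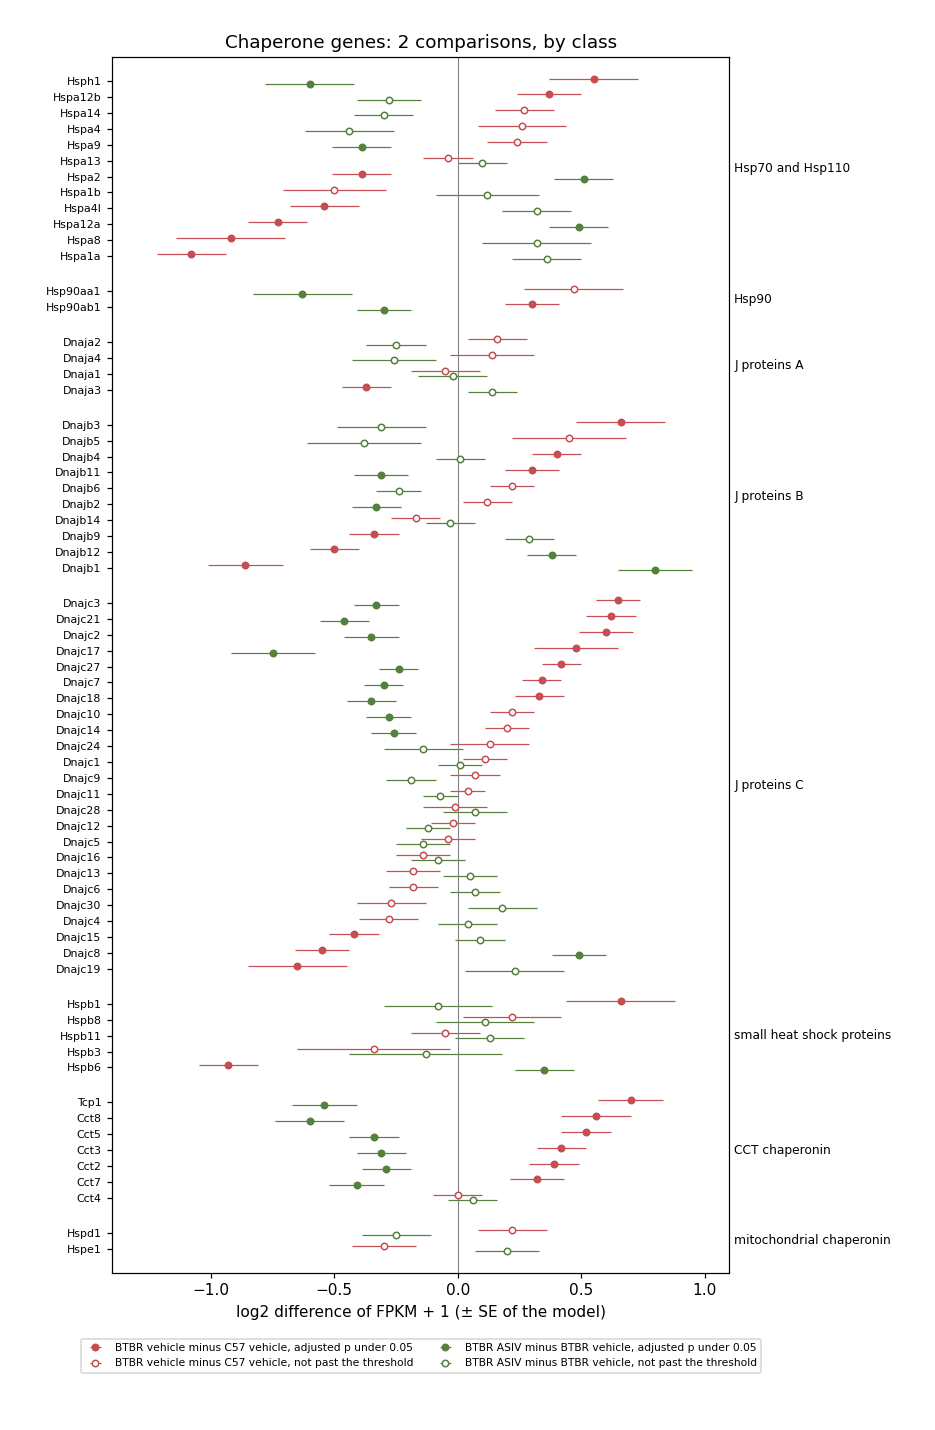
Log2 difference of FPKM + 1 with the standard error of the model for the 66 tested members, by class and in order of the strain difference, for BTBR vehicle minus C57 vehicle (red) and BTBR ASIV minus BTBR vehicle (green). Filled circles passed an adjusted p of 0.05, and the 2 comparisons share the BTBR vehicle libraries. Red values run from -1.08 (Hspa1a) to 0.70 (Tcp1) and green values from -0.75 (Dnajc17) to 0.80 (Dnajb1).

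Among the Hsp70 and Hsp110 genes, 2 of 12 tested were higher and 5 lower in BTBR vehicle, beside 22.3% and 20.8% of all genes. The class median was -0.21. In what follows the values of a group are FPKM of its libraries 1, 2 and 3, and a log2 difference is that of FPKM + 1 with the standard error of the model.

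Hspa8 encodes Hsc70, the constitutive cytosolic Hsp70 (chr9:40800984-40810087, mm10, plus strand). It stood at 248, 238 and 227 FPKM in C57 vehicle and at 133, 163 and 90.1 in BTBR vehicle. With ASIV it was at 207, 259 and 338 in C57 and at 148, 199 and 131 in BTBR. Every BTBR library lay below every C57 library. The strain difference under vehicle was -0.92 ± 0.22 (adjusted p = 0.0059), a ratio of means of 0.541. With ASIV the difference between strains was -0.74 (adjusted p = 0.106), and the change with ASIV in BTBR was 0.32 ± 0.22 (adjusted p = 0.3), neither past the threshold.

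Hspa1a, the first gene of the inducible pair (chr17:34969190-34972156, minus strand), was a low-level transcript at 2.62, 3.73 and 3.05 FPKM in C57 vehicle and 0.782, 1.09 and 0.959 in BTBR vehicle. ASIV libraries had 2.14, 2.94 and 2.67 FPKM in C57 and 1.15, 1.99 and 1.37 in BTBR, again with every BTBR library under every C57 library. The difference under vehicle was -1.08 ± 0.14 (adjusted p = 0.000116), the lowest among the members, with a ratio of means of 0.301, and that with ASIV in BTBR 0.36 ± 0.14 (adjusted p = 0.0831). The log2(FPKM + 1) scale understates the change of such low genes. Hspa1a had 42 to 182 fragments per library. Hspa1b ranged from 2.99 to 6.12 FPKM in C57 vehicle and from 2.39 to 3.42 in BTBR vehicle, which overlap, with a difference of -0.50 ± 0.21 (adjusted p = 0.0681) that passed after rescaling without mitochondrial genes (-0.60, adjusted p = 0.0243). The 2 genes are 99.2% identical over 2201 aligned bases, so how their fragments were divided is uncertain. Hspa1l, the neighbouring Hsp70 gene best known from testis, was below the level for testing, at 0.572 to 1.02 FPKM in C57 vehicle and 0.179 to 0.200 in BTBR vehicle.

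Hspa12a, a distant Hsp70 relative (chr19:58795750-58943654, minus strand), stood at 41.0, 37.9 and 36.0 FPKM in C57 vehicle, at 22.5, 27.1 and 19.3 in BTBR vehicle and at 31.6, 33.1 and 32.5 in BTBR ASIV. The BTBR vehicle libraries lay below the other groups without overlap. It was lower in BTBR under vehicle by -0.73 ± 0.12 (adjusted p = 0.000438) and higher with ASIV in BTBR by 0.49 ± 0.12 (adjusted p = 0.00812). Hspa2, an Hsp70 known for its part in sperm formation, was also lowest in BTBR vehicle, at 17.2, 17.9 and 15.2 FPKM in C57 vehicle, at 12.8, 10.7 and 14.4 in BTBR vehicle and at 16.3, 17.6 and 21.2 in BTBR ASIV. Its differences were -0.39 ± 0.12 (adjusted p = 0.0197) with strain and 0.51 ± 0.12 (adjusted p = 0.00723) with ASIV in BTBR. Without BTBR vehicle library 2 the strain call on Hspa2 was lost (-0.28, adjusted p = 0.0682).

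The Hsp110 exchange factors went different ways. Hsph1 stood at 32.8, 31.2 and 30.8 FPKM in C57 vehicle, at 38.5, 62.0 and 42.8 in BTBR vehicle and at 25.5, 37.1 and 29.7 in BTBR ASIV. All libraries of BTBR vehicle lay above C57 vehicle and BTBR ASIV, while C57 ASIV, at 31.3, 31.4 and 42.1 FPKM, overlapped with them. Hsph1 was higher in BTBR under vehicle (0.55 ± 0.18, adjusted p = 0.0258) and lower with ASIV in BTBR (-0.60 ± 0.18, adjusted p = 0.024). Library 2 of BTBR vehicle was the highest of all, and without it the differences were 0.35 (adjusted p = 0.0909) and -0.40 (adjusted p = 0.0745), neither past the threshold. Rescaling without mitochondrial genes also ended both calls (adjusted p = 0.0538 and 0.0501). Hspa4l was lower in BTBR vehicle (7.46, 10.3 and 6.48 FPKM) than in C57 vehicle (12.1, 12.7 and 11.3), with a difference of -0.54 ± 0.14 (adjusted p = 0.00743) and no overlap. Its ASIV difference in BTBR of 0.32 ± 0.14 (adjusted p = 0.103) passed without BTBR vehicle library 2 (0.49, adjusted p = 0.00879). Hspa4 was 39.2, 39.8 and 36.5 FPKM in C57 vehicle and 37.8, 66.3 and 39.7 in BTBR vehicle, and its uncalled difference of 0.26 was 0.01 without BTBR vehicle library 2.

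Hspa9 encodes mortalin, the Hsp70 of the mitochondrial matrix. It was at 47.5, 65.5 and 47.7 FPKM in BTBR vehicle and 37.1, 42.4 and 41.7 in BTBR ASIV, and was called lower with ASIV (-0.39 ± 0.12, adjusted p = 0.0324). Without BTBR vehicle library 2 that difference was -0.23 (adjusted p = 0.0917). Hspa12b, an Hsp70 relative of endothelial cells, was higher in BTBR vehicle (5.92, 3.70 and 4.94 FPKM) than in C57 vehicle (3.71, 3.20 and 3.56), by 0.37 ± 0.13 (adjusted p = 0.034), with 1 library overlapping. Endothelial and mural markers summed to 154.5 to 209.6 FPKM in BTBR vehicle and 146.6 to 175.4 in C57 vehicle, and their part in Hspa12b was not tested. Hspa13, the Hsp70 of microsomes, and Hspa14, which binds ribosomes, were not called in either comparison.

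Both Hsp90 genes taken in by the rule, Hsp90aa1 and Hsp90ab1, had their highest mean in BTBR vehicle. Hsp90aa1, the inducible form (chr12:110690605-110702728, minus strand), stood at 202, 190 and 170 FPKM in C57 vehicle, at 210, 375 and 222 in BTBR vehicle and at 141, 198 and 169 in BTBR ASIV. Here too the BTBR vehicle libraries lay above C57 vehicle and BTBR ASIV, and library 2 stood far above the rest. C57 ASIV, at 194, 206 and 264 FPKM, overlapped with BTBR vehicle. The strain difference of 0.47 ± 0.20 did not pass (adjusted p = 0.0806), while the difference with ASIV in BTBR did (-0.63 ± 0.20, adjusted p = 0.0367). Without BTBR vehicle library 2 the latter was -0.36 (adjusted p = 0.103). Hsp90ab1, the constitutive form, stood at 445, 413 and 408 FPKM in C57 vehicle, at 472, 565 and 526 in BTBR vehicle and at 399, 425 and 441 in BTBR ASIV. Its BTBR vehicle libraries lay above C57 vehicle and BTBR ASIV, while C57 ASIV, at 444, 440 and 526 FPKM, overlapped with them. Hsp90ab1 was called higher with strain (0.30 ± 0.11, adjusted p = 0.0356) and lower with ASIV in BTBR (-0.30 ± 0.11, adjusted p = 0.0489). Of 23 alternatives, 8 ended the strain call on Hsp90ab1 and 15 its ASIV call, with no change of sign. Both calls were lost without BTBR vehicle library 2 (adjusted p = 0.092 and 0.119) and after rescaling without mitochondrial genes (adjusted p = 0.18 and 0.27). For Hsp90aa1 that rescaling gave -0.47 with ASIV (adjusted p = 0.0795).

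**Figure D2:**
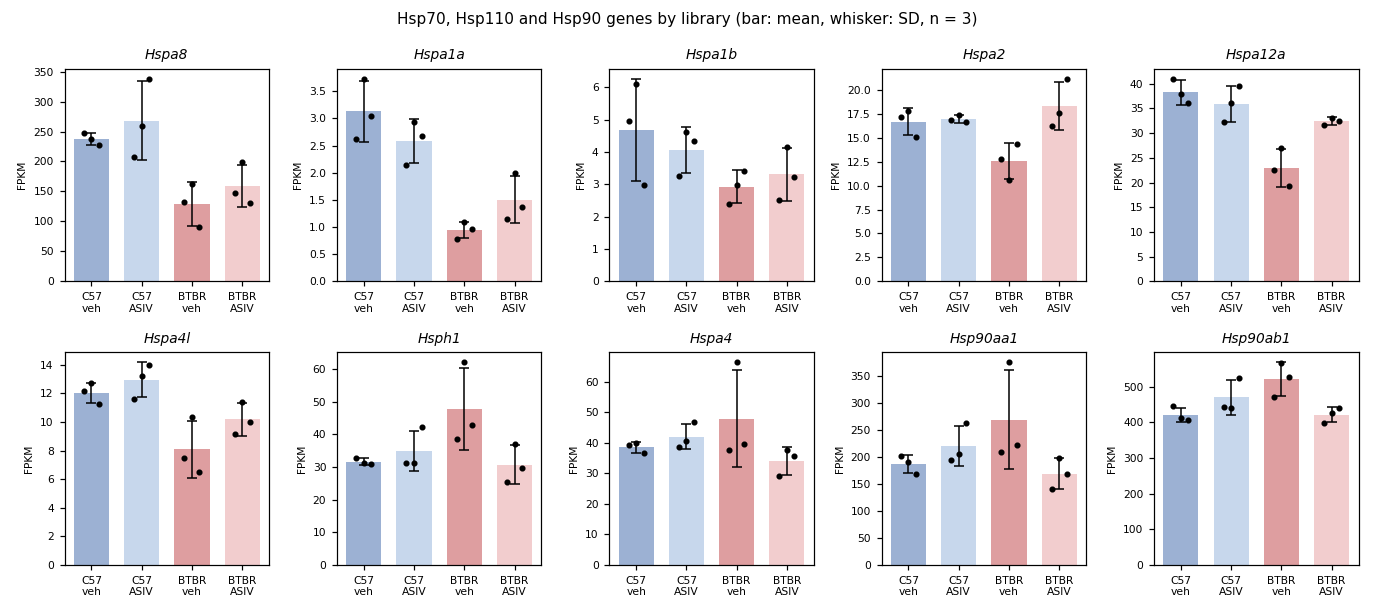
FPKM of 10 Hsp70, Hsp110 and Hsp90 genes in the 12 libraries, with points for libraries, bars for group means and whiskers for the SD (n = 3), each panel with its own axis from 0. For Hspa8 and Hspa1a the BTBR libraries lie below all C57 libraries, and for Hsph1, Hspa4 and Hsp90aa1 the BTBR vehicle mean is raised by 1 library, at 62.0, 66.3 and 375 FPKM.

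The J proteins of class A, the closest to bacterial DnaJ, had 4 tested genes. With ASIV in BTBR 0 of the 4 were called by limma, beside 13.7% of all genes higher and 15.4% lower. Of the 4, 0 had an unadjusted p under 0.05 and 0 were called by voom. With strain only Dnaja3, the mitochondrial J protein, was called lower (11.3, 13 and 9.96 FPKM against 15.2, 14.3 and 15.5, difference -0.37 ± 0.10, adjusted p = 0.00781). Dnaja1, the main cytosolic class A partner of Hsp70, stood at 24.8, 23.9 and 23.2 FPKM in C57 vehicle and 21.1, 27.6 and 21.1 in BTBR vehicle. The groups overlapped and the difference of -0.05 ± 0.14 was not called (adjusted p = 0.786). Dnaja1 overlaps Smu1 and shares sequence of up to 99.4% identity with processed pseudogenes of the table.

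Among class B genes, 3 of 10 tested were higher and 3 lower with strain, beside 22.3% and 20.8% of all genes. With ASIV in BTBR 2 were higher and 2 lower, beside 13.7% and 15.4% of all genes. Dnajb1, the inducible Hsp40 that works with Hsp70 on aggregates (chr8:83608193-83612653, plus strand), stood at 18.6, 18.6 and 18.8 FPKM in C57 vehicle and at 8.40, 9.37 and 12.1 in BTBR vehicle. It stood at 15.7, 19.2 and 18.6 in C57 ASIV and 16.3, 22.8 and 15.4 in BTBR ASIV. The BTBR vehicle libraries were the lowest of the 12, and the BTBR ASIV libraries overlapped with both C57 groups. It was lower with strain (-0.86 ± 0.15, adjusted p = 0.000696, ratio of means 0.532) and higher with ASIV in BTBR (0.80 ± 0.15, adjusted p = 0.00201, ratio 1.83), the highest ASIV difference among the members.

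Dnajb12, a J protein of the ER membrane, stood at 13.2, 12.6 and 12.2 FPKM in C57 vehicle, at 9.45, 9.45 and 7.23 in BTBR vehicle and at 12.4, 10.8 and 11.7 in BTBR ASIV. No other library was as low as those of BTBR vehicle. It was lower with strain (-0.50 ± 0.10, adjusted p = 0.00231) and higher with ASIV in BTBR (0.38 ± 0.10, adjusted p = 0.0156). Dnajb11, an ER lumen partner of BiP, went the other way at 13.2, 13.6 and 13.1 FPKM in C57 vehicle, at 18.3, 16.9 and 14.7 in BTBR vehicle and at 11.9, 15.1 and 12.7 in BTBR ASIV. Its calls were near the threshold (0.30 ± 0.11, adjusted p = 0.0377, and -0.31 ± 0.11, adjusted p = 0.0456), and rescaling without mitochondrial genes ended both. Of 23 alternatives, 8 ended its strain call and 17 its ASIV call. Dnajb9, another ER partner of BiP, was lower with strain (-0.34 ± 0.10, adjusted p = 0.0187). Dnajb4 was higher in BTBR vehicle (7.28, 8.28 and 6.99 FPKM) than in C57 vehicle (5.49, 5.29 and 5.59), at 0.40 ± 0.10 (adjusted p = 0.00684), and was not called with ASIV in BTBR (0.01 ± 0.10, adjusted p = 0.963). Dnajb3 was also called higher with strain (0.66 ± 0.18, adjusted p = 0.0117), from 10 to 39 fragments per library. Dnajb2, a neuronal J protein that sorts clients to the proteasome, stood at 30.4, 22.8 and 25.2 FPKM in BTBR vehicle and 21.8, 19.2 and 20.5 in BTBR ASIV, and was called lower (-0.33 ± 0.10, adjusted p = 0.0333). That call was lost in 8 of 23 alternatives, among them rescaling without mitochondrial genes (-0.18, adjusted p = 0.258) and leaving out BTBR vehicle library 1 or 3 or BTBR ASIV library 2 or 3.

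Class C, the most varied in function, had 24 tested genes. With strain 7 were higher and 3 lower, beside 22.3% and 20.8% of all genes. With ASIV in BTBR 1 was higher and 9 lower, beside 13.7% and 15.4% of all genes. Under rescaling without mitochondrial genes the class counts were 5 and 6, and 1 and 2. J proteins tied to ribosomes were among the higher genes. Dnajc21, needed for maturation of the large ribosomal subunit, stood at 3.88, 3.36 and 3.35 FPKM in C57 vehicle, at 5.53, 5.79 and 6.51 in BTBR vehicle and at 4.11, 4.29 and 3.74 in BTBR ASIV. The BTBR vehicle libraries were higher without overlap, by 0.62 ± 0.10 (adjusted p = 0.000402), and those with ASIV were lower than with vehicle (-0.46 ± 0.10, adjusted p = 0.00446). Dnajc2, which sits on ribosomes beside the nascent chain, stood at 3.91, 3.40 and 3.62 FPKM in C57 vehicle, at 5.26, 7.07 and 5.93 in BTBR vehicle and at 4.10, 4.82 and 4.70 in BTBR ASIV. Its BTBR vehicle libraries were the highest, again without overlap. Its differences were 0.60 ± 0.11 (adjusted p = 0.000984) and -0.35 ± 0.11 (adjusted p = 0.0315), and the second was lost without BTBR vehicle library 2 (-0.25, adjusted p = 0.103) and after rescaling without mitochondrial genes.

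Dnajc3, the ER lumen protein P58IPK, stood at 10.3, 11.4 and 11.4 FPKM in C57 vehicle and at 18.2, 17.5 and 17.8 in BTBR vehicle, with a difference of 0.65 ± 0.09 (adjusted p = 0.000117). In BTBR ASIV it was at 12.9, 15.7 and 13.3 FPKM, between the other 2 groups and without overlap, and was called lower than BTBR vehicle (-0.33 ± 0.09, adjusted p = 0.0122). That call was lost after rescaling without mitochondrial genes (-0.19, adjusted p = 0.134). Dnajc10, an ER disulfide reductase, was called lower with ASIV (-0.28 ± 0.09, adjusted p = 0.0276), while its strain difference did not pass (0.22 ± 0.09, adjusted p = 0.0509).

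The 2 J proteins of splicing moved in opposite directions. Dnajc8 stood at 23.6, 22.3 and 24.4 FPKM in C57 vehicle, at 14.7, 17.4 and 15.0 in BTBR vehicle and at 23.4, 20.6 and 23.0 in BTBR ASIV. It was lower with strain (-0.55 ± 0.11, adjusted p = 0.0013) and higher with ASIV (0.49 ± 0.11, adjusted p = 0.00484). Dnajc17 stood at 4.67, 3.30 and 4.94 FPKM in C57 vehicle, at 5.45, 6.71 and 6.86 in BTBR vehicle and at 3.65, 2.37 and 4.30 in BTBR ASIV, higher with strain (0.48 ± 0.17, adjusted p = 0.0396) and lower with ASIV (-0.75 ± 0.17, adjusted p = 0.00671). In both genes the BTBR vehicle libraries overlapped with neither other group. The strain call on Dnajc17 was lost without BTBR vehicle library 2 (0.44, adjusted p = 0.0914) and after rescaling without mitochondrial genes (0.36, adjusted p = 0.115). Dnajc17 had 56 to 150 fragments per library.

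Dnajc15 and Dnajc19, J proteins of the mitochondrial import motor, were both lower in BTBR vehicle. Dnajc15 stood at 8.76, 9.37 and 7.99 FPKM in C57 vehicle and 6.09, 7.13 and 5.62 in BTBR vehicle (-0.42 ± 0.10, adjusted p = 0.00488). Dnajc19 stood at 3.66, 4.55 and 3.65 against 2.87, 1.80 and 1.89 (-0.65 ± 0.20, adjusted p = 0.0209), and without BTBR vehicle library 2 its difference was -0.56 (adjusted p = 0.0644). The vehicle groups did not overlap in either gene. Neither was called with ASIV in BTBR.

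Dnajc27, a Rab-like GTPase with a J domain, Dnajc7, a partner of Hsp70 and Hsp90, and Dnajc18 were higher with strain and lower with ASIV, with strain differences of 0.42, 0.34 and 0.33 and ASIV differences of -0.24, -0.30 and -0.35. Without BTBR vehicle library 2 the ASIV calls on Dnajc27 (adjusted p = 0.0634) and Dnajc18 (adjusted p = 0.0624) were lost, as was the strain call on Dnajc18 (0.24, adjusted p = 0.0623). Rescaling without mitochondrial genes ended the ASIV call on each of Dnajc27, Dnajc7 and Dnajc18, and the strain call on Dnajc18 (0.20, adjusted p = 0.114). Of 23 alternatives, 10 ended the ASIV call on Dnajc27, 5 that on Dnajc18 and 2 that on Dnajc7. The synaptic pair was not called in any comparison, except Dnajc6 with strain after rescaling without mitochondrial genes (-0.32, adjusted p = 0.0258). Dnajc5, the cysteine string protein, stood at 64.9, 64.8 and 63.0 FPKM in C57 vehicle and at 61.9, 73.3 and 53.3 in BTBR vehicle (-0.04 ± 0.11, adjusted p = 0.772). Dnajc6, auxilin, stood at 58.9, 54.8 and 52.9 against 43.7, 54.7 and 48.6 (-0.18 ± 0.10, adjusted p = 0.168). In both the groups overlapped.

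Small heat shock proteins hold unfolded proteins without using ATP. Of the 5 taken in by the rule 1 was higher and 1 lower with strain, beside 22.3% and 20.8% of all genes. Hspb6, known from muscle and also found in astrocytes (chr7:30552178-30555443, plus strand), stood at 1.96, 1.61 and 1.77 FPKM in C57 vehicle and 2.01, 1.70 and 2.02 in C57 ASIV. In BTBR it stood at 0.625, 0.458 and 0.296 with vehicle and 1.06, 0.769 and 0.729 with ASIV, so every BTBR library was under every C57 library. Its strain difference was -0.93 ± 0.12 under vehicle (adjusted p = 8.9e-05, ratio of means 0.258) and -0.65 ± 0.12 under ASIV (adjusted p = 0.0141). The rise with ASIV in BTBR of 0.35 ± 0.12 was near the threshold (adjusted p = 0.0452) and was lost in 13 of 22 alternatives, among them without BTBR vehicle library 2 (adjusted p = 0.0745). Hspb6 rests on 11 to 85 fragments per library. It reached the level for testing through its C57 libraries, since among BTBR libraries only ASIV library 1 (1.06 FPKM) was above 1 FPKM. Astrocyte markers summed to 741.9 to 867.6 FPKM in C57 vehicle and 589.1 to 778.9 in BTBR vehicle, and their part in Hspb6 was not tested. Hspb1, the inducible Hsp25 gene, stood at 6.34, 10.3 and 9.79 FPKM in C57 vehicle and at 14.1, 9.82 and 20.7 in BTBR vehicle. It was called higher (0.66 ± 0.22, adjusted p = 0.0307) although 1 library overlapped, and it was not called without C57 vehicle library 1 or BTBR vehicle library 1 or 3. Hspb3, Hspb8 and Hspb11 were not called with strain or with ASIV in BTBR. Cryab, a small heat shock protein gene outside the rule, is counted below with the cochaperones. It stood at 38.2, 45.7 and 44.8 FPKM in C57 vehicle, at 28.1, 13.2 and 19.8 in BTBR vehicle and at 40.1, 32.4 and 34.7 in BTBR ASIV.

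**Figure D3:**
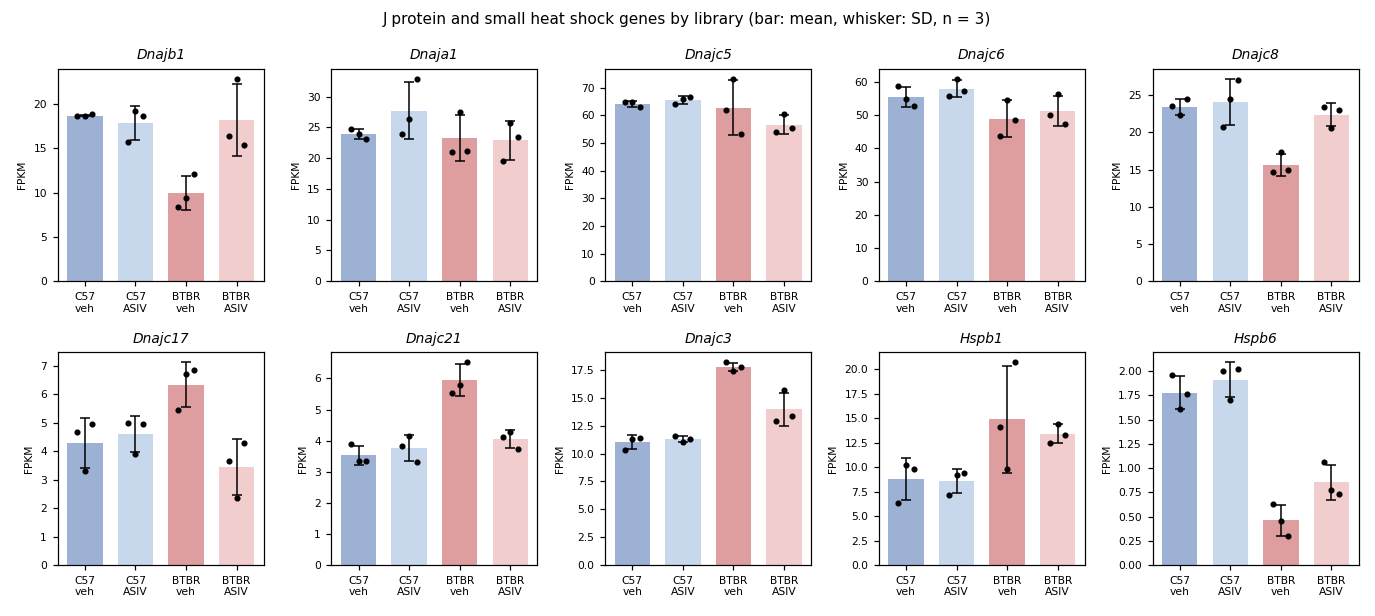
FPKM of 8 J protein genes and 2 small heat shock protein genes in the 12 libraries, with points for libraries, bars for group means and whiskers for the SD (n = 3), each panel with its own axis from 0. Dnajb1 and Dnajc8 are lowest in BTBR vehicle, Dnajc17, Dnajc21 and Dnajc3 are highest there, and Dnaja1, Dnajc5 and Dnajc6 overlap between the vehicle groups.

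The CCT chaperonin was the class with the most even pattern. With strain 6 of its 7 tested subunits were higher and 0 lower (class median 0.42), beside 22.3% and 20.8% of all genes. With ASIV in BTBR the same 6 were lower (class median -0.34), beside 15.4% of all genes. The strain count was 5 to 6 under the other scalings tried. The ASIV count was 2 of 7 after rescaling without mitochondrial genes (median -0.19) and 3 of 7 without BTBR vehicle library 2 (median -0.27). It was 3 without BTBR ASIV library 1 or 2 and 4 without BTBR vehicle library 3, with Cct4 on the positive side in each.

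Tcp1, the subunit also named CCT1 (chr17:12915701-12925067, plus strand), stood at 24.0, 20.6 and 22.9 FPKM in C57 vehicle, 24.6, 23.3 and 26.7 in C57 ASIV, 32.0, 45.1 and 35.5 in BTBR vehicle and 22.8, 24.7 and 28.7 in BTBR ASIV. Only the BTBR vehicle libraries stood apart, above all 9 others. The strain difference was 0.70 ± 0.13 (adjusted p = 0.000899), the highest among the members, and that with ASIV in BTBR -0.54 ± 0.13 (adjusted p = 0.00769). Without BTBR vehicle library 2 they were 0.56 (adjusted p = 0.00207) and -0.40 (adjusted p = 0.0216), still called.

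Cct8 stood at 42.1, 40.7 and 37.4 FPKM in C57 vehicle, at 51.3, 77.4 and 52.8 in BTBR vehicle and at 35.6, 41.2 and 39.7 in BTBR ASIV. Its differences were 0.56 ± 0.14 (adjusted p = 0.00711) and -0.60 ± 0.14 (adjusted p = 0.00738), and 0.37 and -0.42 without the high library 2 of BTBR vehicle, both still called. Cct5 stood at 36.8, 33.6 and 35.8 FPKM in C57 vehicle, at 46.2, 57.2 and 50.8 in BTBR vehicle and at 40.2, 38.4 and 41.8 in BTBR ASIV, with differences of 0.52 ± 0.10 (adjusted p = 0.00154) and -0.34 ± 0.10 (adjusted p = 0.0239). In both genes the BTBR vehicle libraries lay above C57 vehicle and BTBR ASIV. C57 ASIV reached 53.0 FPKM for Cct8, which overlapped with BTBR vehicle, and 43.2 for Cct5, which did not.

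Cct2 stood at 44.6, 42.5 and 41.1 FPKM in C57 vehicle, at 49.7, 60.4 and 59.8 in BTBR vehicle and at 43.5, 44.9 and 49.7 in BTBR ASIV. Cct3 stood at 12.6, 12.7 and 12.8, at 16.1, 19.0 and 17.1, and at 12.7, 13.7 and 15.2 FPKM in the same groups. The strain differences were 0.39 ± 0.10 for Cct2 (adjusted p = 0.00708) and 0.42 ± 0.10 for Cct3 (adjusted p = 0.00392), without overlap of the groups. The ASIV differences of -0.29 ± 0.10 for Cct2 (adjusted p = 0.0446) and -0.31 ± 0.10 for Cct3 (adjusted p = 0.0294) were called. They were not called without BTBR vehicle library 2 (adjusted p = 0.11 and 0.0834) nor after rescaling without mitochondrial genes (adjusted p = 0.274 and 0.185). That rescaling also ended the ASIV call on Cct5 (adjusted p = 0.149). Of 23 alternatives, 14 ended the ASIV call on Cct2 and 6 that on Cct3.

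Cct7 stood at 21.5, 20.9 and 21.9 FPKM in C57 vehicle, at 23.6, 32.9 and 25.5 in BTBR vehicle and at 19.9, 20.8 and 19.6 in BTBR ASIV, with differences of 0.32 ± 0.11 (adjusted p = 0.0299) and -0.41 ± 0.11 (adjusted p = 0.0133). Without BTBR vehicle library 2 the first was 0.19 (adjusted p = 0.0921) and the second -0.28 (adjusted p = 0.0301), and after rescaling without mitochondrial genes neither was called (adjusted p = 0.16 and 0.0752). Cct4 was the subunit that did not follow, at 16.9, 15.6 and 16.4 FPKM in C57 vehicle, at 15.6, 17.1 and 16.0 in BTBR vehicle and at 15.3, 17.8 and 17.8 in BTBR ASIV. Its strain difference was 0.00 in size (SE 0.10, adjusted p = 0.978) and its sign turned under 5 of the alternatives, and its ASIV difference was 0.06 ± 0.10 (adjusted p = 0.702).

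Cct6a, which encodes the remaining ring subunit but falls outside the rule, stood at 30.6, 27.7 and 26.2 FPKM in C57 vehicle, at 36.3, 57.2 and 39.2 in BTBR vehicle and at 23.2, 31.7 and 28.3 in BTBR ASIV. It was higher with strain (0.61 ± 0.16, adjusted p = 0.00879) and lower with ASIV in BTBR (-0.64 ± 0.16, adjusted p = 0.0106), with no overlap in either. Its annotated transcripts overlap those of Psph, and Tcp1 overlaps Acat3, so fragments of these regions may have been counted to either gene.

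**Figure D4:**
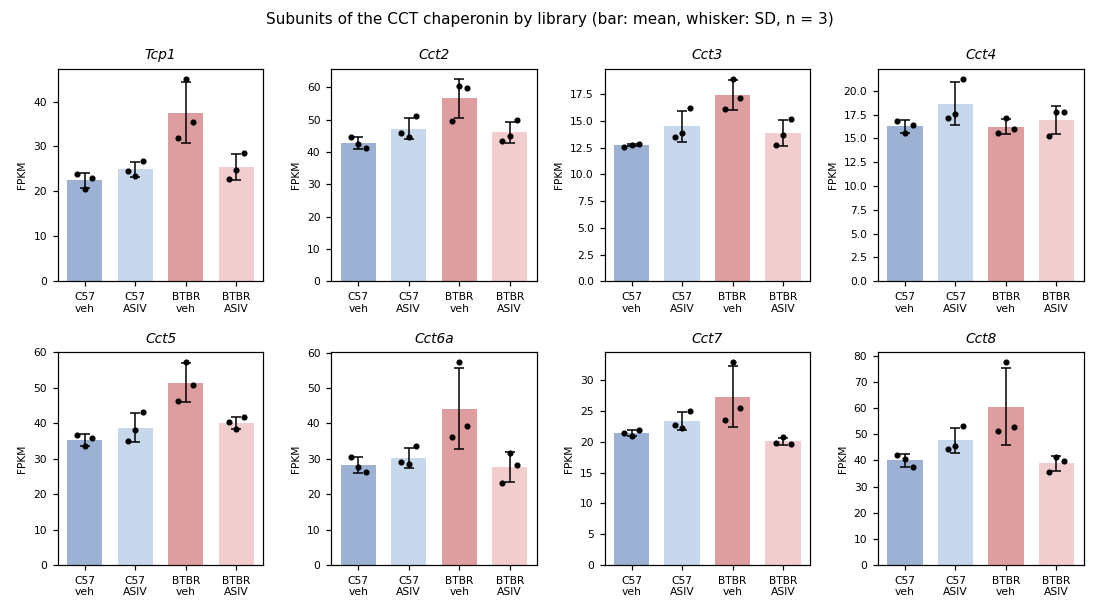
FPKM of the 8 CCT subunit genes in the 12 libraries, Cct6a included, with points for libraries, bars for group means and whiskers for the SD (n = 3), each panel with its own axis from 0. In every panel but that of Cct4 the BTBR vehicle mean is the highest, and library 2 of that group is the highest of its 3.

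The mitochondrial chaperonin did not pass in either comparison. Hspd1, the Hsp60 ring, stood at 43.7, 36.8 and 39.8 FPKM in C57 vehicle and 42.4, 59.3 and 40.6 in BTBR vehicle (0.22 ± 0.14, adjusted p = 0.231). Hspe1, its Hsp10 lid, stood at 26.4, 25.2 and 28.3 against 21.3, 22.9 and 20.4, with no overlap but no call (-0.30 ± 0.13, adjusted p = 0.0957). After rescaling without mitochondrial genes Hspe1 was called lower with strain (-0.43, adjusted p = 0.0115) and higher with ASIV in BTBR (0.35, adjusted p = 0.0382). The 2 genes, whose shared promoter site is shown above, had strain differences of opposite sign, neither past the threshold, and that of Hspd1 was 0.05 without BTBR vehicle library 2 (adjusted p = 0.738).

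ASIV in C57 called 0 members in either direction by limma, beside 0.0% of all genes higher and 0.0% lower, and voom on the recovered fragments also called 0. At an unadjusted p under 0.05 there were 3 members and 417 of all genes. Those 3 were Hspb11 (0.33 ± 0.14), Dnajb6 (0.21 ± 0.09) and Dnajb3 (0.40 ± 0.18), each with an adjusted p of 1.0, and the lowest p among the negative differences were those of Dnajc1 (-0.19 ± 0.09), Hspa1a (-0.20) and Hspa12b (-0.18). All 7 CCT subunits had a positive difference with ASIV in C57 (median 0.14, beside 0.00 for all genes), none of them called.

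With both strains given ASIV, 0 members were higher in BTBR and 1 was lower, beside 1.31% and 1.22% of all genes, and voom gave the same counts. The 1 call was Hspb6, described above, which reached the level for testing through its C57 libraries. The call was lost without C57 ASIV library 3 or BTBR ASIV library 3. At an unadjusted p under 0.05 there were 12 of the 66 tested members, beside 2614 of the 13586 genes tested. Among the others on the lower side, Hspa1a (-0.52, adjusted p = 0.0787) and Hspa8 (-0.74, adjusted p = 0.106) had the smallest p. On the higher side the smallest p belonged to Dnajc1 (0.31, adjusted p = 0.11), Dnajc3 (0.28, adjusted p = 0.115) and Hspb1 (0.59, adjusted p = 0.18).

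The interaction tests whether the ASIV difference is unlike between the strains. It called 2 members higher and 9 lower, beside 6.91% and 7.36% of all genes. Dnajb1 (0.87 ± 0.21, adjusted p = 0.0178) and Hspa12a (0.58 ± 0.17, adjusted p = 0.0357) had the more positive ASIV difference in BTBR. On the lower side were 5 CCT subunits, namely Cct8 (-0.85 ± 0.20, adjusted p = 0.016), Tcp1 (-0.68 ± 0.18), Cct7 (-0.53 ± 0.15), Cct3 (-0.48 ± 0.14) and Cct5 (-0.47 ± 0.14), and the J proteins Dnajc17, Dnajc2, Dnajc21 and Dnajb6. In C57 ASIV, Cct8 stood at 44.4, 45.5 and 53.0 FPKM, above every C57 vehicle library, while in BTBR the ASIV libraries lay below every vehicle library. Hspa12a stood at 32.3, 36.2 and 39.5 FPKM in C57 ASIV and overlapped with C57 vehicle. Dnajc17 stood at 4.98, 3.89 and 4.96 FPKM in C57 ASIV and overlapped likewise. Dnajb6, a suppressor of polyglutamine aggregation, stood at 18.0, 16.5 and 16.7 FPKM in C57 vehicle and at 17.7, 20.2 and 22.1 in C57 ASIV, beside 19.6, 21.3 and 19.5 in BTBR vehicle and 16.4, 17.2 and 17.1 in BTBR ASIV. Its libraries with ASIV were thus below those with vehicle in BTBR and overlapped with them in C57, and neither single ASIV difference was called. Only Dnajb1 and Cct8 were called under every alternative. The count called lower was 1 without C57 vehicle library 2, 14 without BTBR vehicle library 1, and 2 to 5 without any other single library except BTBR vehicle library 3. After rescaling without mitochondrial genes it was 1, and of all genes 571 were then lower, in place of 1000.

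The other genes of the chaperone system, a list of 45 cochaperones, prefoldin subunits and heat shock factors chosen by function, had 44 tested genes. With strain 15 were higher and 5 lower (median 0.12), beside 22.3% and 20.8% of all genes. With ASIV in BTBR 3 were higher and 12 lower (median -0.11), beside 13.7% and 15.4% of all genes, and with ASIV in C57 0 were called. The list was counted without rescaling only, so how its counts depend on the scaling was not tested. Stub1, the ubiquitin ligase CHIP that tags Hsp70 clients, stood at 39.9, 42.3 and 40.4 FPKM in C57 vehicle, at 65.4, 72.9 and 85.6 in BTBR vehicle and at 50.7, 43.1 and 45.4 in BTBR ASIV. It was higher with strain (0.84 ± 0.10, adjusted p = 7.19e-05) and lower with ASIV (-0.67 ± 0.10, adjusted p = 0.000732), with no overlap in either. Bag5, an Hsp70 exchange factor, stood at 16.7, 17.6 and 17.1, at 26.2, 34.5 and 32.8 and at 18.4, 19.8 and 21.5 FPKM in the same groups, with differences of 0.81 ± 0.10 (adjusted p = 9.49e-05) and -0.62 ± 0.10 (adjusted p = 0.00121).

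Unc45a, a cochaperone of Hsp90 for myosin, and Fkbp8, a membrane immunophilin, were higher with strain by 0.89 ± 0.12 (adjusted p = 0.000144) and 0.60 ± 0.09 (adjusted p = 0.000284). Hspbp1, an exchange factor that inhibits CHIP, and Tomm34, which binds Hsp70 and Hsp90 on the way to mitochondria, were lower with ASIV in BTBR by -0.55 ± 0.09 (adjusted p = 0.00101) and -0.46 ± 0.08 (adjusted p = 0.00129). The interaction called 2 of the list higher and 7 lower, beside 6.91% and 7.36% of all genes, with Bag5 (-0.78), Ppid (-0.57), Hspbp1 (-0.57) and Tomm34 (-0.50) at the smallest p. Hsf1, the main heat shock factor, stood at 4.21, 4.42 and 4.30 FPKM in C57 vehicle, at 3.60, 3.55 and 3.67 in BTBR vehicle and at 4.73, 4.18 and 3.998 in BTBR ASIV. The BTBR vehicle libraries were the lowest, and its differences of -0.20 and 0.20 did not pass (adjusted p = 0.0604 and 0.0834).

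Members with paired heat shock units in the promoter were called higher in 6 and lower in 2 of 17 with strain, and members without them in 11 and 10 of 37 tested, beside 22.3% and 20.8% of all genes. With ASIV in BTBR the counts were 1 higher and 5 lower of 17, and 5 and 11 of 37, beside 13.7% and 15.4% of all genes. Medians of the strain difference were 0.22 and 0.11 and those of the ASIV difference -0.13 and -0.14, so the ASIV medians of the 2 sets were close.

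Sequence shared with other genes limits several of these values. Of the 69 members, 22 share at least 90% identity over at least 300 bases with a gene annotated elsewhere, and for 10 such a gene is itself in the table. Not all of these genes are copies of the member. The match of Tcp1 is to Acat2 over 445 bases, and the 35 matches of Hspb11 include Brca2 over 343 bases. Hspa8 has 13 such matches, some of them annotated at overlapping places. Of these the pseudogene Gm8355 (98.7% identical) averaged 1.005 FPKM for C57 vehicle and 0.755 for BTBR vehicle. Hsp90aa1 shares 99.5% with Gm12346, which averaged 4.619 FPKM for C57 vehicle and 5.115 for BTBR vehicle. Dnajb6 has 5 copies in the table, with means up to 5.536 FPKM, beside 16.4 to 22.1 FPKM of its own. How fragments that fit several copies were counted, and whether strand was used, is not given in the sources used here.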

How the data were processed

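RNA of the mPFC was sequenced in 12 libraries, 4 groups of 3. The authors deposited FPKM per gene; HISAT2 2.0.5 and mm10 are named per the submitters' processing notes, while the counter, annotation, strand and filters behind the values are not stated (not given in the sources used here). The table holds 17283 genes, of which 17265 matched GENCODE M21 by identifier and 18 did not, and it has no zeros.

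The 13586 genes that reached 1 FPKM in 3 or more libraries were fitted, as log2(FPKM + 1), with limma 3.58.1 in R 4.3.3 (4 group means, eBayes with trend and robust, 8 residual degrees of freedom), with Benjamini-Hochberg adjustment and a threshold of 0.05. A ratio is that of mean FPKM. The members, the gene lists, the tests and the rule for named genes were chosen with earlier results of these data known. The rule named, per comparison, the 8 called members with the largest difference in each direction, a constant set of core chaperones, the 3 smallest p per direction where under 3 were called, and 4 listed cochaperones.

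FPKM times exon length gave whole fragments for 97.6 to 98.0% of values under 50 fragments (tolerance 0.02). Copies were found by aligning GENCODE transcripts. The fit was tested on simulated data. Alternatives were pseudocount 0.1, other filters and scalings, voom, a replicate block and leaving out each library. Python 3.11.15, pandas 2.3.3 and matplotlib 3.10.9 were used. Protein sequences were not analysed here.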

Additional observations from a re-analysis of the deposited data

Results flagged for a closer look

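For 11 members the interaction test called the ASIV difference unlike in the 2 strains (limma, Benjamini-Hochberg adjusted p under 0.05 over all genes tested). That is 3.03% of the 66 tested members higher and 13.6% lower, beside 6.91% and 7.36% of all genes. Only Dnajb1 and Cct8 were called under every alternative, and rescaling without mitochondrial genes gave 4 members higher and 1 lower. The ASIV difference in BTBR minus that in C57 was -0.85 for Cct8, -0.68 for Tcp1, -0.53 for Cct7, -0.48 for Cct3 and -0.47 for Cct5, on the log2 scale. It was -0.83 for Dnajc17, -0.53 for Dnajc2, -0.53 for Dnajc21 and -0.45 for Dnajb6. It was 0.58 for Hspa12a and 0.87 for Dnajb1. In C57 none of the 11 was called with ASIV (adjusted p = 1.0), and the BTBR vehicle libraries enter each value.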

How the results depend on the processing

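Of the alternatives, the rescaling without genes of the mitochondrial genome changed most counts of called members: with strain under vehicle 12 higher, with ASIV in BTBR 10 higher and 4 lower, and in the interaction 4 higher and 1 lower. The counts of all genes moved too. They were 2030 higher with strain, 3021 higher and 1122 lower with ASIV in BTBR, and 1261 higher and 571 lower in the interaction. Fitting only the libraries compared gave 4 lower with ASIV in BTBR and 1 higher between strains under ASIV. The stricter filter gave 0 lower between strains under ASIV and 14 lower in the interaction, and TPM gave 1 higher and 14 lower in the interaction. Leaving out 1 library gave 13 to 21 higher with strain under vehicle, 8 to 22 lower with ASIV in BTBR, 0 to 2 lower between strains under ASIV, and 1 to 3 higher and 1 to 14 lower in the interaction. Where fewer libraries are fitted, fewer degrees of freedom remain; otherwise the cause was not tested. The replicate block gave 19 higher and 15 lower with strain, 7 and 18 with ASIV in BTBR, 2 lower between strains under ASIV, and 3 and 7 in the interaction. Deviations of same-numbered libraries of different groups correlated at -0.172 to 0.279 (median 0.027), beside -0.37 to 0.225 (median -0.008) for libraries with other numbers. These ranges overlap, and with 3 libraries per group they cannot tell whether replicate numbers pair the samples. Some uncalled values changed sign. With strain, Dnaja1 was 0.00 under TPM and -0.18 to 0.01 with 1 library left out, Dnajc5 was 0.02 and -0.16 to 0.07, and Cct4 was 0.05 and -0.04 to 0.02. With ASIV in BTBR, leaving out 1 library gave -0.02 to 0.26 for Hspa1b, -0.10 to 0.11 for Dnaja1, -0.01 to 0.15 for Dnajc6 and -0.33 to 0.17 for Hspb1. Rescaling without mitochondrial genes gave 0.13 for Dnaja1, 0.02 for Dnajc5 and 0.06 for Hspb1, and Dnaja1 was 0.06 with quantile normalization and 0.03 by voom. The fit of only the libraries compared was not run for the interaction, which needs all of them.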
